A study of Mus musculus with 36 samples.

Results

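The effect of losing HP1α was set against the effect of losing HP1γ in conventional CD4+ T cells (Tconv) that had met regulatory T cells (Treg) in the host. For each gene the log2 fold change between HP1a KO and HP1a WT (the HP1a KO effect) was taken, the log2 fold change between HP1g KO and HP1g WT (the HP1g KO effect) was subtracted from it, and the result, here called the difference, was tested against 0. A difference below 0 means that KO cells stood lower against their own WT cells in the HP1a line than in the HP1g line. The comparison used 11 of the 36 RNA-seq libraries of the series, 3 each of HP1a KO, HP1a WT and HP1g WT and 2 of HP1g KO, all from Tconv transferred with Treg. Replicate 3 of HP1g KO was left out for its library quality.

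In the HP1a line a floxed Cbx5 allele, which encodes HP1α, had been deleted with CMV-cre in the germ line, so that each cell of the donor mouse lacked it, whereas in the HP1g line a floxed Cbx3 allele, which encodes HP1γ, was deleted with Cd4-cre in T cells. WT cells came from sex-matched littermates of each line, young adults of a mixed 129/Sv and C57BL/6 background. By the crosses described, the WT mice of the HP1a line carried no deleted Cbx5 allele. Those of the HP1g line were homozygous for the floxed Cbx3 allele and lacked Cd4-cre. Naive CD4+ T cells were injected with Treg expanded from WT Foxp3-Thy1.1 mice, and with equal parts of syngeneic B6 and semi-allogeneic B6D2F1 bone marrow, into lethally irradiated CD45.1+ B6 hosts. Splenic Tconv were sorted 3 weeks later for CD4 and for the Vβ6 receptor chain, which recognises the semi-allogeneic donor. Gates for CD45.2 and H-2Kb, and against CD45.1, H-2Kd and Thy1.1, removed cells of the host, of the semi-allogeneic donor and the injected Treg. The syngeneic marrow came from C57BL/6J mice, and these gates do not separate cells that arose from it from the injected Tconv. The study injected Treg at various ratios, and the sample titles do not give those of these libraries. Each line has WT libraries of its own, so the 2 KO effects share no control. Line, experiment, any difference in Treg ratio and any batch between them cannot be told apart. The labels do not say that replicates are separate animals, and p-values measure the spread between these libraries, which may in part be technical.

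HP1 proteins bind histone H3 methylated at lysine 9 and help to keep chromatin compact and silent. Mammalian cells have 3 of them, HP1α, HP1β and HP1γ, which share their domains and differ in where on the chromosomes they lie. Treg restrain Tconv that respond to alloantigen, and CD4+ T cells that go on responding to antigen acquire inhibitory receptors such as PD-1 and LAG-3, the transcription factor TOX, and in some cells the program of follicular helper T cells (Tfh).

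The 11 libraries held between 37910080 and 61773000 estimated counts (median 48986394), in which 3 counts correspond to 0.0486 to 0.0791 CPM (counts scaled to a common library size), and 20160 to 23134 genes were detected in each. Correlations of log2 CPM between replicates were 0.918 to 0.979. All 10 CD4 T cell markers, among them Cd3e, Cd4 and Trac, were present in each group, with summed levels of 8807 to 14670 CPM. Cbx5, the targeted gene of the HP1a line, was at 15.8, 19.1 and 19.9 CPM in HP1a KO, 47.3, 34.6 and 65.2 CPM in HP1a WT, 27.9 and 29.9 CPM in HP1g KO, and 20.3, 27.5 and 37.9 CPM in HP1g WT. It did not overlap between HP1a KO and HP1a WT, though the lowest HP1g WT library was about as low as HP1a KO, and its difference was -1.44 ± 0.391 (SE; adjusted p 0.0777). Cbx3, the targeted gene of the HP1g line, was at 61.7 and 60.8 CPM in HP1g KO and 80.9, 82.4 and 104 CPM in HP1g WT, against 145 to 197 CPM in HP1a KO and 148 to 225 CPM in HP1a WT. Its difference was 0.50 ± 0.277 (adjusted p 0.385), and both lines' targets were lowest in the KO libraries that the labels name. Most of the Cbx3 level of HP1g WT remained in HP1g KO, however, and HP1g WT itself lay below both groups of the HP1a line. These are levels of RNA over the whole gene, not of protein. By western blot the study found HP1α absent and HP1γ almost absent from naive CD4+ T cells of the KO mice. Adjusted p-values throughout are Benjamini-Hochberg values of edgeR's quasi-likelihood test over all genes tested, and errors of log2 values are SE.

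Of 18573 genes tested, 506 were called (2.72%), at an adjusted p under 0.05 and a difference beyond 1 on the log2 scale. The difference was below 0 for 330 genes (1.78%) and above 0 for 176 (0.948%). Within the same fit 34 genes were called for the HP1a KO effect (0.183%) and 6 for the HP1g KO effect (0.0323%), 3 of them for both, and of the 506 genes 470 were called for neither, 308 of those below 0 and 162 of those above. The DESeq2 alternative called 1447 genes, 632 above 0 and 815 below, and all 506 were among them. The count rests on single libraries. It was 51 without replicate 1 of HP1g KO and 903 without replicate 2, 70 without replicate 3 and 120 without replicate 1 of HP1a KO, 86, 157 and 336 without replicates 2, 3 and 1 of HP1g WT, 258 without replicate 1 of HP1a WT, and 12 with the left-out library put back. Calls for the KO effects were as dependent, at 0 to 133 for HP1a and 0 to 172 for HP1g with 1 library left out, and those for HP1a fell to 0 without replicate 1 or 3 of HP1a KO or replicate 1 of HP1a WT.

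Nearly all called genes had KO effects of opposite signs, though most genes with opposite signs were not called. Opposite signs in the called direction were found for 329 of the 330 genes below 0 (99.7%) and for 171 of the 176 above 0 (97.2%), whereas 63.8% of all genes tested had KO effects of opposite signs. A difference that is called is the more likely to hold opposite signs, so these shares describe the genes and test nothing. For the genes below 0 the median HP1a KO effect was -1.67 and the median HP1g KO effect 1.88, and both exceeded 1 in size for 227 genes. For the genes above 0 the medians were 1.03 and -0.91, with both beyond 1 for 56 genes. In 282 of the 330 genes (85.5%) and 144 of the 176 (81.8%) the KO and WT libraries did not overlap in either line, in the directions called, as against 7.09% of all genes tested in either direction.

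**Figure D1:**
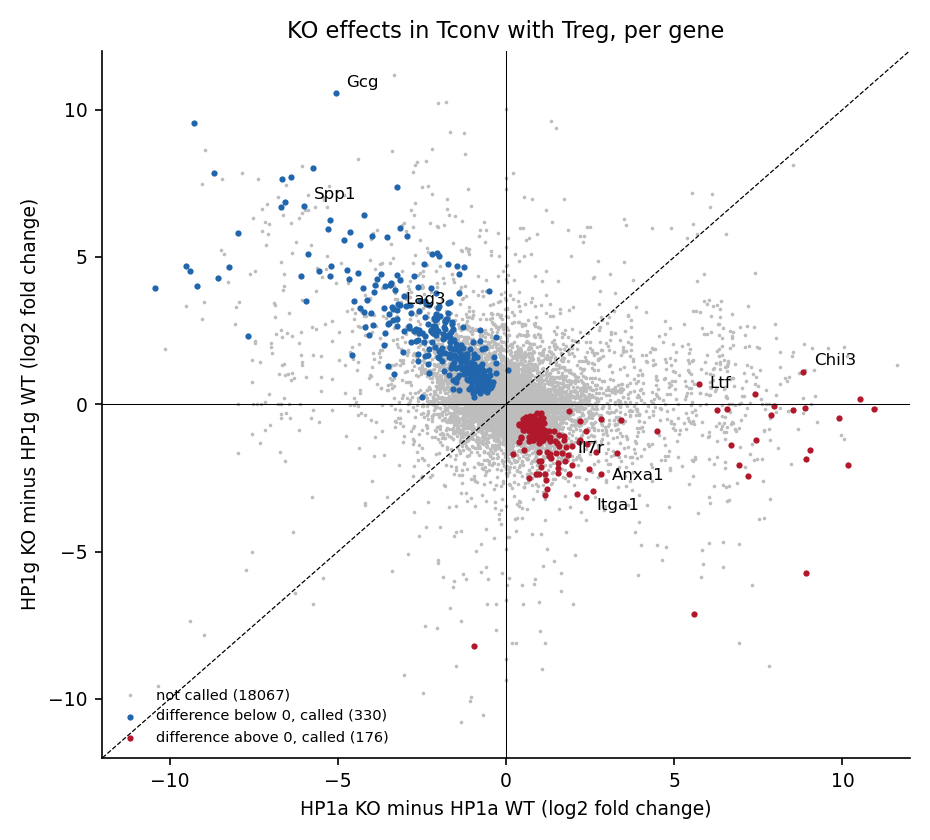
The HP1a KO effect (x axis, log2 fold change of HP1a KO against HP1a WT) is plotted against the HP1g KO effect (y axis, log2 fold change of HP1g KO against HP1g WT) for each of the 18573 genes tested in Tconv with Treg, and equal effects would lie on the dashed line. The 330 genes called below 0 (blue) lie at the upper left, with Spp1, Gcg and Lag3, and the 176 called above 0 (red) lie mostly at the lower right, while Ltf and Chil3 have a high HP1a KO effect and an HP1g KO effect near 0.

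The levels behind the differences were crossed between the lines. The genes were selected for a difference that contains these levels, so the values that follow describe the selection and test nothing. The 330 genes had a median level, over genes, of 19 CPM in HP1a WT and 5.44 CPM in HP1a KO, but of 4.49 CPM in HP1g WT and 17.1 CPM in HP1g KO. HP1a WT thus lay near HP1g KO and HP1a KO near HP1g WT. HP1a WT was above HP1g WT for 328 of the 330 genes, by a median of 2.11 on the log2 scale, and HP1a KO was below HP1g KO for all but 4, with a median of -1.54. Over all genes tested HP1a WT was above HP1g WT for 9680 of 18573, with a median of 0.04. For the 176 genes above 0 the order was inverted, at 21.4 CPM in HP1a WT, 41.4 in HP1a KO, 63.2 in HP1g WT and 28.7 in HP1g KO. HP1a WT was below HP1g WT for all but 5 of these genes, with a median of -1.55, and HP1a KO was above HP1g KO for 151, with a median of 0.59. The difference between WT cells of the lines enters each called value. Whether it belongs to the line, to the experiment or to the Treg ratio cannot be told apart. The study states that Treg did not effectively repress WT cells at the ratio of its HP1g experiment. For the HP1a experiment it describes a set of genes as strongly inhibited by Treg in WT cells. Whether the ratio differed between the lines was not tested. In the library left out of HP1g KO the 330 genes had a median of 9.51 CPM and the 176 genes a median of 32.1 CPM.

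The list of inhibitory receptors, which dampen signalling from the T cell receptor, also held the ligand gene Cd200. Of its 15 genes 6 were called below 0 and 1 above 0 (46.7%, against 2.72% of all genes). The median difference of the list was -0.75, against 0.00 over all genes. Lag3, which encodes a receptor for MHC class II, was at 6.48, 3.53 and 8.21 CPM in HP1a KO and 47.4, 55.2 and 71.1 CPM in HP1a WT. In the HP1g line it was at 59.6 and 21.7 CPM in KO and 7.59, 3.14 and 2.64 CPM in WT. The 3 HP1a WT and 2 HP1g KO libraries were thus high and the other 6 low, without overlap. The difference of Lag3 was -6.44 ± 0.737 (adjusted p 0.0053), and its HP1a KO effect, -3.25, was itself called (adjusted p 0.0453), a call that was lost in each fit without replicate 1 or 3 of HP1a KO or replicate 1 of HP1a WT.

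Pdcd1, which encodes PD-1, was at 112, 149 and 99.6 CPM in HP1a KO against 552, 473 and 280 CPM in HP1a WT. It was at 564 and 183 CPM in HP1g KO against 87.9, 61.5 and 33.1 CPM in HP1g WT. The 4 groups fell into the same 2 blocks, and the difference was -4.47 ± 0.665 (adjusted p 0.0137). Havcr2, the gene of TIM-3, was at 11, 6.71 and 12.7 CPM in HP1a KO and 43.4, 44.6 and 43.5 CPM in HP1a WT, and at 105 and 17.9 CPM in HP1g KO and 11.2, 9.24 and 5.19 CPM in HP1g WT. The HP1g KO libraries of Havcr2 differed widely between themselves, with the lower close to the highest HP1a KO and HP1g WT libraries. Its difference was -4.96 ± 0.787 (adjusted p 0.0149). Cd200, whose product is the ligand of an inhibitory receptor on myeloid cells, Tigit, which binds CD155, and Ctla4, which competes with CD28 for its ligands, had differences of -3.74, -3.47 and -2.40. Cd96, which also binds CD155, was the member above 0, at 227 to 262 CPM in HP1a KO and 92.5 to 176 CPM in HP1a WT, and at 134 and 216 CPM in HP1g KO and 286 to 347 CPM in HP1g WT (1.85 ± 0.376, adjusted p 0.0304).

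**Figure D2:**
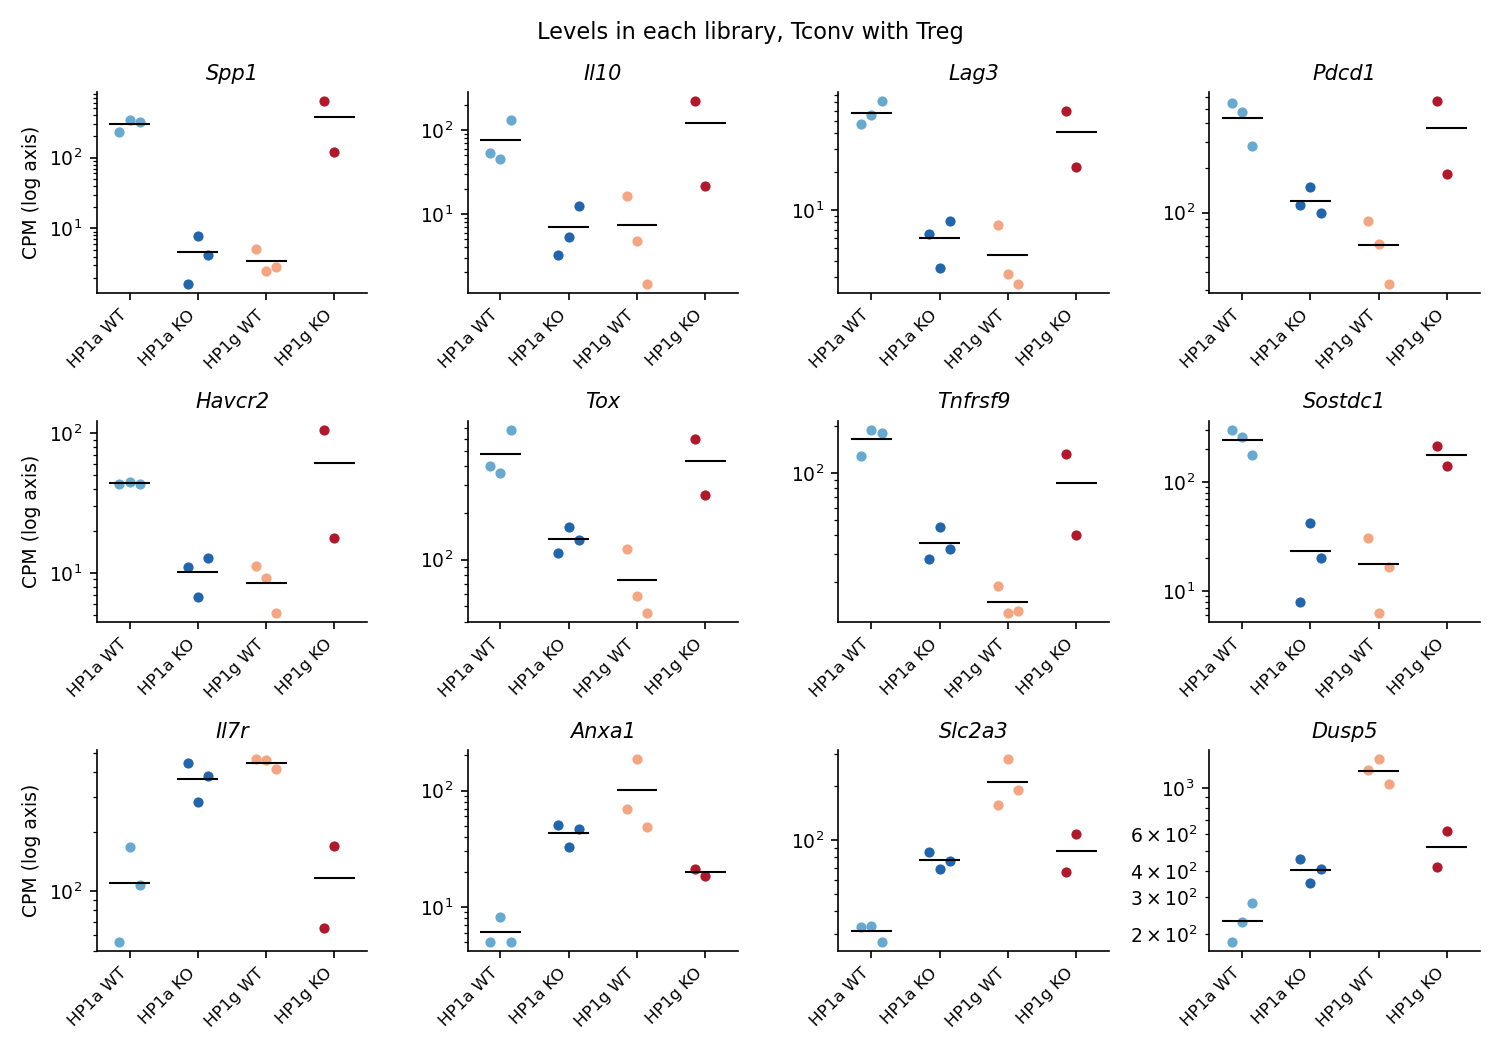
CPM on a log axis in each of the 11 libraries for 12 called genes, with a horizontal line at the mean of each group of 3 (HP1a WT, HP1a KO, HP1g WT) or 2 (HP1g KO) libraries. The 8 genes of the upper 2 rows are high in HP1a WT and HP1g KO, and the 4 of the lowest row, from Il7r to Dusp5, have their lowest mean in HP1a WT.

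The sequences before the 3 members of the inhibitory receptor list with the lowest adjusted p are shown because these genes moved together. That of Chil3, which had the highest difference among the genes named from those averaging at least 5 CPM, is shown for contrast. Each is the 250 bases before the outermost annotated start of the gene, read 5′ to 3′ along the gene's strand from the reference genome, and capitals mark matches to the motifs searched. Lag3 is on the minus strand of GRCm39 chromosome 6 (gene 124881320 to 124888765, sequence chr6:124888766-124889015), Pdcd1 on the minus strand of chromosome 1 (gene 93966027 to 93980312, sequence chr1:93980313-93980562), Cd200 on the minus strand of chromosome 16 (gene 45202470 to 45229594, sequence chr16:45229595-45229844) and Chil3 on the minus strand of chromosome 3 (gene 106054870 to 106074880, sequence chr3:106074881-106075130).
Lag3: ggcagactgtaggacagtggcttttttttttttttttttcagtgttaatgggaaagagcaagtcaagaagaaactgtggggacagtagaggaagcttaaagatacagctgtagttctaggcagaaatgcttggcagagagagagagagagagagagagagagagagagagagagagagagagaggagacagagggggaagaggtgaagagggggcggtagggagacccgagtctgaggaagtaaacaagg
Pdcd1: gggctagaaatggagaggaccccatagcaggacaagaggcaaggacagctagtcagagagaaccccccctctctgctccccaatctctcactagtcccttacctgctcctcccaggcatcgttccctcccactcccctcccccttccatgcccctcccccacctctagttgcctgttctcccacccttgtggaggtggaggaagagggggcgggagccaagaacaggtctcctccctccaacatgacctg
Cd200: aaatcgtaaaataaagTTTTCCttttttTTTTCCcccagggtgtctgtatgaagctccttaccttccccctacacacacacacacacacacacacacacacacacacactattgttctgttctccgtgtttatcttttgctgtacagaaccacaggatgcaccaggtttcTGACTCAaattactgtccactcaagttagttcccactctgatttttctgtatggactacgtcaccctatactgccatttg
Chil3: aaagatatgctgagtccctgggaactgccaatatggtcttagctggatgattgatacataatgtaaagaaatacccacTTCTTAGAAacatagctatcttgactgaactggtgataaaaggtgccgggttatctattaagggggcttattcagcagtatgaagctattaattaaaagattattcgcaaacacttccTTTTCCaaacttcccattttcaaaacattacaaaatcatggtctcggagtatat
Both strands were searched for TGANTCA (AP-1), GGAAAA (NFAT), AAAGGTCA (NR4A), AGGTGTGA (T-box) and TTCNNNGAA (STAT), of which none is contained in another. The Cd200 sequence held TGACTCA beginning 80 bases before the start and GGAAAA on the opposite strand, read as TTTTCC, 234 and 222 bases before it. The Chil3 sequence held TTCTTAGAA 172 bases before the start and TTTTCC 54 bases before it, and those of Lag3 and Pdcd1 held no match. Among 292 protein-coding genes called below 0, 6.51% held the AP-1, 22.6% the NFAT, 1.03% the NR4A, 1.37% the T-box and 6.16% the STAT motif. Among the 163 called above 0 the shares were 4.29%, 25.2%, 2.45%, 1.84% and 7.98%, and among all 21770 protein-coding genes 6.46%, 22.8%, 1.27%, 1.07% and 7.82%.

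Tfh genes made up the list with the highest share of called members. All 7 called genes of the 12 tested (58.3%, against 2.72% of all genes) were below 0. The median difference was -3.58, from medians of -1.29 for the HP1a and 2.31 for the HP1g KO effect. Sostdc1, which encodes a secreted antagonist of BMP and Wnt signals, was at 7.93, 42.4 and 20.3 CPM in HP1a KO and 299, 260 and 176 CPM in HP1a WT. It was at 213 and 140 CPM in HP1g KO and 30.5, 6.33 and 16.5 CPM in HP1g WT, without overlap in either line (-6.70 ± 0.934, adjusted p 0.0107). Il21, the cytokine through which Tfh cells help B cells, was at 16.1, 72.4 and 49.8 CPM in HP1a KO, 317, 251 and 110 CPM in HP1a WT, 379 and 150 CPM in HP1g KO and 39.6, 14.7 and 22.8 CPM in HP1g WT. Its difference was -5.66 ± 0.898 (adjusted p 0.0149). Ascl2, a transcription factor of early Tfh cells, ranged from 0.217 to 0.278 CPM in HP1a KO and from 2 to 22.8 CPM in HP1a WT, and was at 10.3 and 2.41 CPM in HP1g KO and at 0.0357 to 0.375 CPM in HP1g WT (-10.99 ± 1.49, adjusted p 0.01). Bcl6, the repressor that defines the Tfh program, was called with a smaller difference of -2.64 ± 0.584 (adjusted p 0.0396), its HP1a WT libraries spreading from 19.4 to 53.9 CPM and its HP1a KO libraries from 14.3 to 33.1 CPM. Sh2d1a, the adaptor of SLAM receptors, had a difference of -2.36, and Pdcd1 and Cd200 complete the 7.

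Of 11 TOX, NR4A and EGR factors, 1 was called (9.09%, against 2.72% of all genes), too few to set the list apart. Tox, which encodes the factor that maintains T cells under chronic stimulation, was at 110, 162 and 133 CPM in HP1a KO and 398, 362 and 680 CPM in HP1a WT, and at 596 and 260 CPM in HP1g KO and 117, 58.8 and 45.5 CPM in HP1g WT. The libraries of HP1a WT and HP1g KO were all above those of the other groups, and the difference was -4.37 ± 0.608 (adjusted p 0.0107). Of 18 effector transcription factors 5 were called (27.8%, against 2.72% of all genes), all below 0, although the median of the list was 0.28. These were Ikzf2 (-3.97), which encodes Helios, Bcl6, Batf (-2.34), an AP-1 partner of IRF4, Maf (-2.25), which acts in IL-10 and IL-21 expression, and Ikzf3 (-1.67), which encodes Aiolos. Of the anergy and adenosine pathway 2 of 12 genes were called below 0 (16.7%, against 2.72% of all genes). These were Izumo1r (-3.23), which encodes folate receptor 4, and Rnf128 (-3.04), the ubiquitin ligase GRAIL.

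Costimulatory receptors and ligands had 5 of 19 members called (26.3%, against 2.72% of all genes), all below 0, with a median difference of -0.99. Tnfrsf9, which encodes 4-1BB, was at 28.2, 44.9 and 32.6 CPM in HP1a KO, 128, 189 and 181 CPM in HP1a WT, 132 and 39.9 CPM in HP1g KO and 18.8, 12.6 and 13 CPM in HP1g WT. Neither line overlapped, and the difference was -4.77 ± 0.568 (adjusted p 0.00618). Tnfrsf8, the gene of CD30, Tnfrsf4, the gene of OX40, Cd27 and Pdcd1lg2, the gene of PD-L2, had differences of -4.02, -2.61, -2.02 and -1.61.

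Of 21 effector cytokines 4 were called below 0 and none above (19%, against 2.72% of all genes), with a median difference of -0.12. Spp1, which encodes osteopontin, had a difference of -12.75 ± 1.07 with an adjusted p of 0.00147, the lowest of the named genes. It was at 1.65, 7.87 and 4.24 CPM in HP1a KO and 230, 337 and 315 CPM in HP1a WT, and at 628 and 122 CPM in HP1g KO and 5.19, 2.51 and 2.82 CPM in HP1g WT. Spp1 was the single named gene called for both KO effects, -6.01 for HP1a (adjusted p 0.042) and 6.74 for HP1g (adjusted p 0.0327). The HP1a call was lost in each fit without replicate 1 or 3 of HP1a KO or replicate 1 of HP1a WT. The HP1g call was lost in each fit without 1 of the HP1g WT libraries. Il10, the anti-inflammatory cytokine, was at 3.25, 5.25 and 12.4 CPM in HP1a KO, 54, 45.2 and 131 CPM in HP1a WT, 223 and 21.4 CPM in HP1g KO and 16.2, 4.69 and 1.46 CPM in HP1g WT. The groups did not overlap within a line, though the lower HP1g KO library stood close to the highest HP1g WT library (-7.50 ± 1.47, adjusted p 0.0278). Tnfsf8, the ligand of CD30, had a difference of -2.29, and Il21 is given above. Of 16 cytotoxic and chemokine ligand genes 2 were called (12.5%, against 2.72% of all genes), both of them chemokines. Ccl3 was at 12 to 33.9 CPM in HP1a KO and 261 to 1117 CPM in HP1a WT, at 538 and 49.9 CPM in HP1g KO and at 3.28 to 26.4 CPM in HP1g WT (-8.88 ± 1.5, adjusted p 0.0173), and Ccl4 had a difference of -7.64.

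The other named genes with the lowest differences include some that are little known in T cells. Gcg, which encodes proglucagon, had the lowest difference, -15.61 ± 2.48 (adjusted p 0.0149). It was at 2.04, 4.47 and 10.4 CPM in HP1a KO and 87.9, 51.2 and 430 CPM in HP1a WT, and at 3612 and 22.1 CPM in HP1g KO and 2.38, 1.01 and 0.285 CPM in HP1g WT. The high and low groups were those of Lag3, but the HP1g KO libraries differed by far more than any other pair of replicates of this gene. Ociad2 (-10.48), Padi4 (-9.30), an enzyme that converts arginine to citrulline, Adgrg1 (-8.21), an adhesion receptor also called GPR56, Cxxc5 (-7.65), Lratd1 (-7.31) and Map2 (-7.17), a protein of microtubules, followed. Padi4 overlapped in the HP1a line, where WT replicate 3, at 1.09 CPM, lay within the KO range of 0.607 to 2.03 CPM while replicates 1 and 2 were at 58.6 and 41.1 CPM.

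Il7r was among the genes above 0. It is the gene of the IL-7 receptor, which sustains naive and memory T cells, and was at 442, 284 and 381 CPM in HP1a KO and 55.5, 167 and 107 CPM in HP1a WT. In the HP1g line it was at 65.5 and 169 CPM in KO and 465, 461 and 415 CPM in WT, so that its high and low groups were those of Lag3 exchanged (3.68 ± 0.626, adjusted p 0.0175). Of 20 genes of naive and memory identity 4 were called above 0 and 1 below (25%, against 2.72% of all genes), with a median difference of 0.30. The others were Ly6c1 (3.18), Igfbp4 (3.17) and Dapl1 (1.91), and Cd27 was the member below 0. S1pr1, the receptor for egress from lymphoid organs, was the single called gene among 20 chemokine receptors (5%, against 2.72% of all genes), whose median difference was 1.43. Its difference, 1.45 ± 0.339, had an adjusted p of 0.0499, and it was -0.12 with the left-out library of HP1g KO put back. Among 27 cytokine receptors 14.8% were called, against 2.72% of all genes. Of the called members, Il4ra (2.33), Il18r1 (2.30) and Ifngr1 (1.99) were above 0 and Il1r2, a decoy receptor for IL-1, was below (-4.61). Among 18 genes of integrins and adhesion 27.8% were called, against 2.72% of all genes. Here Itga1 (5.53), a collagen receptor subunit, Cd69 (1.42) and Cd44 (1.24) were above 0. Itgb8 (-5.90) and Itgav (-1.25), which form an activator of TGF-β, were below.

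Anxa1, which encodes annexin A1, a target of glucocorticoids, was at 51.1, 33 and 46.8 CPM in HP1a KO and 5.06, 8.23 and 5.03 CPM in HP1a WT. It was at 21.3 and 18.5 CPM in HP1g KO and 68.9, 186 and 49 CPM in HP1g WT, again without overlap (5.18 ± 0.698, adjusted p 0.00968). Its HP1a KO effect, 2.83, was called by itself (adjusted p 0.0487), a call lost in the same fits as that of Lag3. Slc2a3, the gene of the glucose transporter GLUT3, was the single called gene of 19 in glycolysis (5.26%, against 2.72% of all genes). It was at 86.3, 68.9 and 76.1 CPM in HP1a KO, 32.8, 33 and 27.1 CPM in HP1a WT, 66.5 and 108 CPM in HP1g KO and 157, 282 and 190 CPM in HP1g WT (2.58 ± 0.364, adjusted p 0.0113). Here the 4 groups did not form 2 blocks, since HP1a KO and HP1g KO lay side by side between the WT groups. Dusp5, a phosphatase of ERK, behaved likewise, at 352 to 458 CPM in HP1a KO, 184 to 283 in HP1a WT, 419 and 621 in HP1g KO and 1039 to 1371 in HP1g WT (2.02 ± 0.315, adjusted p 0.0149). Other named genes above 0 were Edaradd (5.14), Gcnt2 (4.98), Mmp9 (4.25), Qpct (4.25), Sulf2 (4.08), Atf3 (4.03), Ifitm3 (3.86) and Myo6 (3.76).

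The gene sets that the study used for these cells differed in direction. Of 96 exhaustion genes tested 27 were called below 0 and 2 above (30.2%, against 2.72% of all genes). The median difference was -1.23, the median HP1a KO effect -0.58 and the median HP1g KO effect 0.64. Beside those named, the 27 included Ptpn5 (-7.11), a tyrosine phosphatase, Penk (-6.51), which encodes proenkephalin, Setbp1 (-4.90), Art3 (-4.67), Rgs16 (-4.60), Scin (-4.42), Twsg1 (-2.98), Ptger2 (-2.07), Cd9 (-1.66), Casp4 (-1.61) and Tank (-1.32), and those above 0 were Ptger4 (1.65) and Ier5 (1.06). Of 74 Th1 genes tested 6 were called, all above 0 (8.11%, against 2.72% of all genes), with a median of 0.52. These were Anxa1, Mmp9, Ifitm3, Il18r1, Sema4a (2.10) and Ifngr1. Both sets come from the study of these samples and are not independent evidence of a direction.

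**Figure D3:**
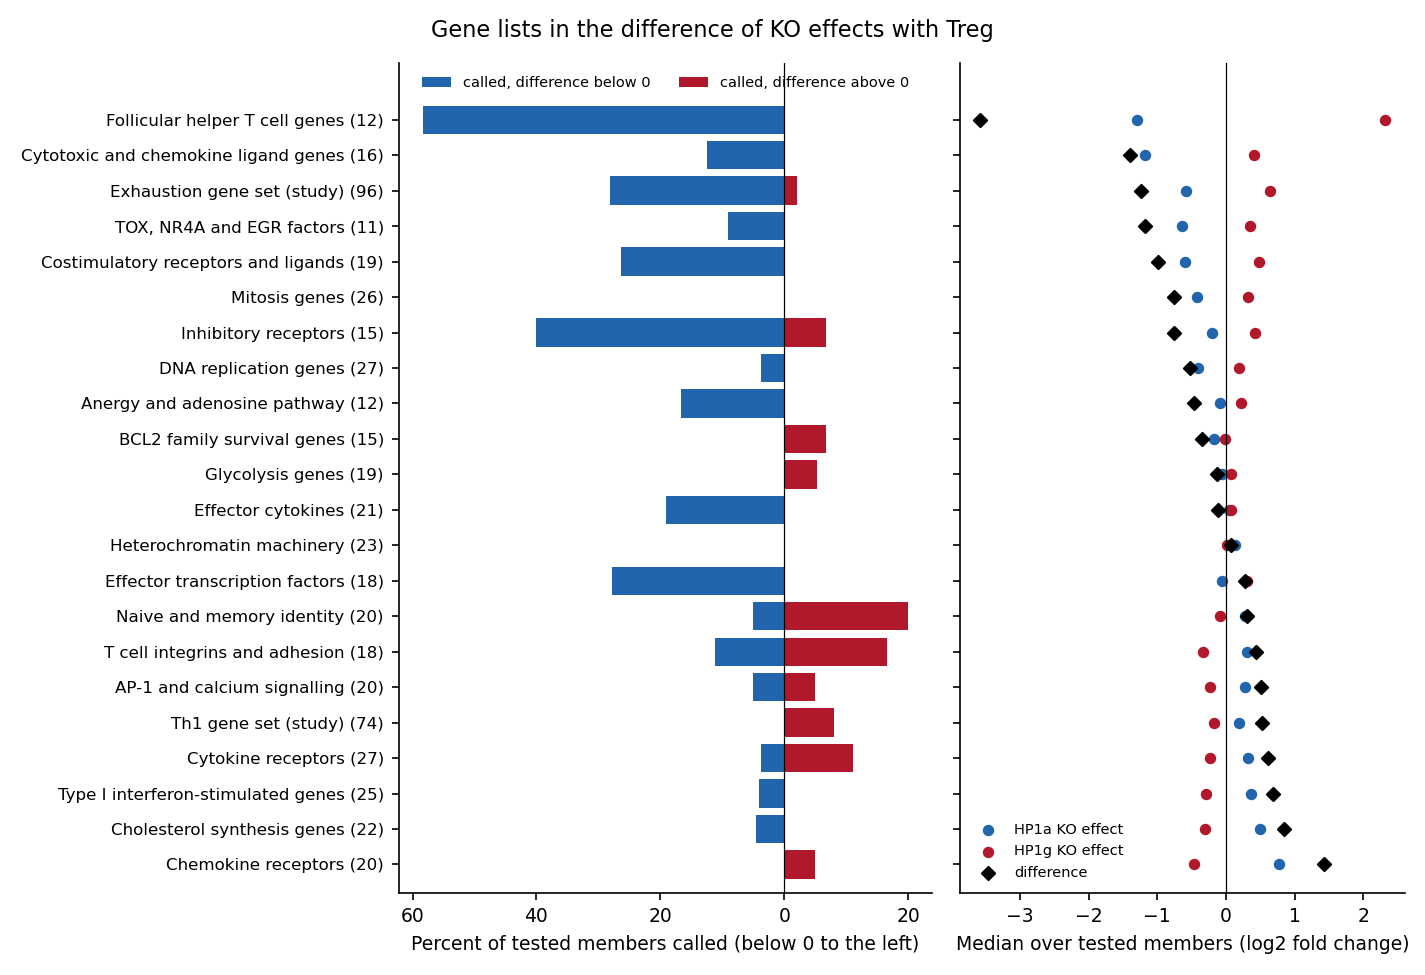
For 22 gene lists, with the number of tested members in brackets, the left panel shows the percent of members called below 0 (blue, to the left) and above 0 (red, to the right), and the right panel the median log2 fold change of the members for the HP1a KO effect, the HP1g KO effect and their difference. The Tfh list has the highest share called and the lowest median, -3.58, and the chemokine receptor list the highest median, 1.43.

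Lists of growth and of chromatin were read against the background of 2.72% called. None of 26 mitosis genes was called (median -0.76), the lowest adjusted p being that of Smc4, a condensin subunit, at -0.96 ± 0.259 (adjusted p 0.0759). Of 27 DNA replication genes 1 was called, Gins2 (-1.50, list median -0.53), of 22 cholesterol synthesis genes Pmvk (-1.40, list median 0.85), of 25 interferon-stimulated genes Ifih1 (-1.96, list median 0.69), of 15 BCL2 family genes Bbc3 (1.58, list median -0.35), which encodes the death-promoting protein PUMA, and of 20 AP-1 and calcium genes Dusp5 and Batf. In these lists 1 or 2 called genes make 3.7% to 10% of the members, too few to set them apart from the background. None of 23 heterochromatin genes was called (median 0.07), a count that the background share also allows. After Cbx5 its lowest p-values belonged to Setdb2, a histone methyltransferase, at 0.91 ± 0.297 (adjusted p 0.137), and Cbx1, which encodes HP1β, at -0.89 ± 0.297 (adjusted p 0.142).

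Most called genes were protein-coding, 292 of 330 below 0 (88.5%) and 163 of 176 above 0 (92.6%), against 72.4% of all genes tested. A mean of at least 5 CPM was reached by 64.8% and 80.1% of them, against 54.1%. Genes within 20 Mb of the targeted genes were counted, because flanking alleles can travel with a targeted gene in mice of mixed background. Of 229 genes tested around Cbx5 on chromosome 15, 3 were called (1.31%), namely Hdac7, Tmem106c and Vdr. Of 244 around Cbx3 on chromosome 6, 10 were called (4.1%), Akr1b10, Akr1b8, Dgki, Gm2663, Gm30211, Herc3, Jazf1, Tmem140, Tnip3 and Wipf3. The share was thus below the background of 2.72% at the first locus and above it at the second, and 493 of the 506 genes lay elsewhere.

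Markers of other cell types moved with the groups in part. The neutrophil list had 2 of 9 tested genes called, both above 0 (22.2%, against 2.72% of all genes). Its median difference was 5.15, from medians of 5.74 for the HP1a and 0.64 for the HP1g KO effect. Its summed level over all 10 markers was 410, 262 and 480 CPM in HP1a KO and 2.4, 2.12 and 39.2 CPM in HP1a WT, but 349 and 45.7 CPM in HP1g KO and 177, 65 and 124 CPM in HP1g WT. HP1a WT thus held less neutrophil RNA than the other groups, and Elane and Prtn3 were at 0 there, as were Mpo and Elane in HP1g KO. Chil3, a chitinase-like protein of myeloid cells, was at 23.2, 14.6 and 19.3 CPM in HP1a KO and 0, 0 and 0.137 CPM in HP1a WT, and at 28.3 and 2.71 CPM in HP1g KO and 9.67, 2.7 and 9.06 CPM in HP1g WT (7.73 ± 1.59, adjusted p 0.0317). Ltf, which encodes lactoferrin, was at 36.4 to 65.1 CPM in HP1a KO, 0.394 to 1.37 CPM in HP1a WT, 51.1 and 9.82 CPM in HP1g KO and 10.4 to 23.5 CPM in HP1g WT (5.03 ± 0.943, adjusted p 0.0241). Neither gene had the crossed order of Lag3 or Il7r. Outside this list, called genes averaging under 5 CPM also had a high HP1a KO effect and an HP1g KO effect near 0. Among them were C5ar1 (10.94 and -0.16), Clec4e (10.52 and 0.19), Fpr1 (7.87 and -0.38) and Cd177 (7.39 and 0.34). These were at or close to 0 CPM in HP1a WT, so their fitted values are no measure of size. Whether their RNA came from neutrophils was not tested.

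None of 10 macrophage and monocyte markers (median 2.63) and none of 6 erythroid markers (median 3.52) was called. The macrophage markers summed to 53.6 to 394 CPM in HP1a KO, 25.4 to 58.7 in HP1a WT, 69 and 94.3 in HP1g KO and 29.6 to 95.8 in HP1g WT, and Lyz2, lysozyme, had the lowest p-value among them (4.52 ± 1.13, adjusted p 0.0631). Erythroid markers summed to 114 to 709 CPM in HP1a KO, 2.68 to 52.6 in HP1a WT, 6171 and 114 in HP1g KO and 156 to 3538 in HP1g WT. The part that such RNA has in other called genes was not tested. The sort was for CD4 and Vβ6, which cells of these types do not carry as a rule, and in bulk samples fewer cells of a type and less RNA per cell cannot be told apart. No marker was called among 10 of B cells, 6 of dendritic cells, 4 of CD8 T or NK cells or the 3 tested of platelets (medians -1.26, 2.09, 0.85 and 0.41). Their lowest p-values belonged to Blk (-6.18), Zbtb46 (-2.63), Klrb1c (-2.59) and Gp9 (-4.13).

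**Figure D4:**
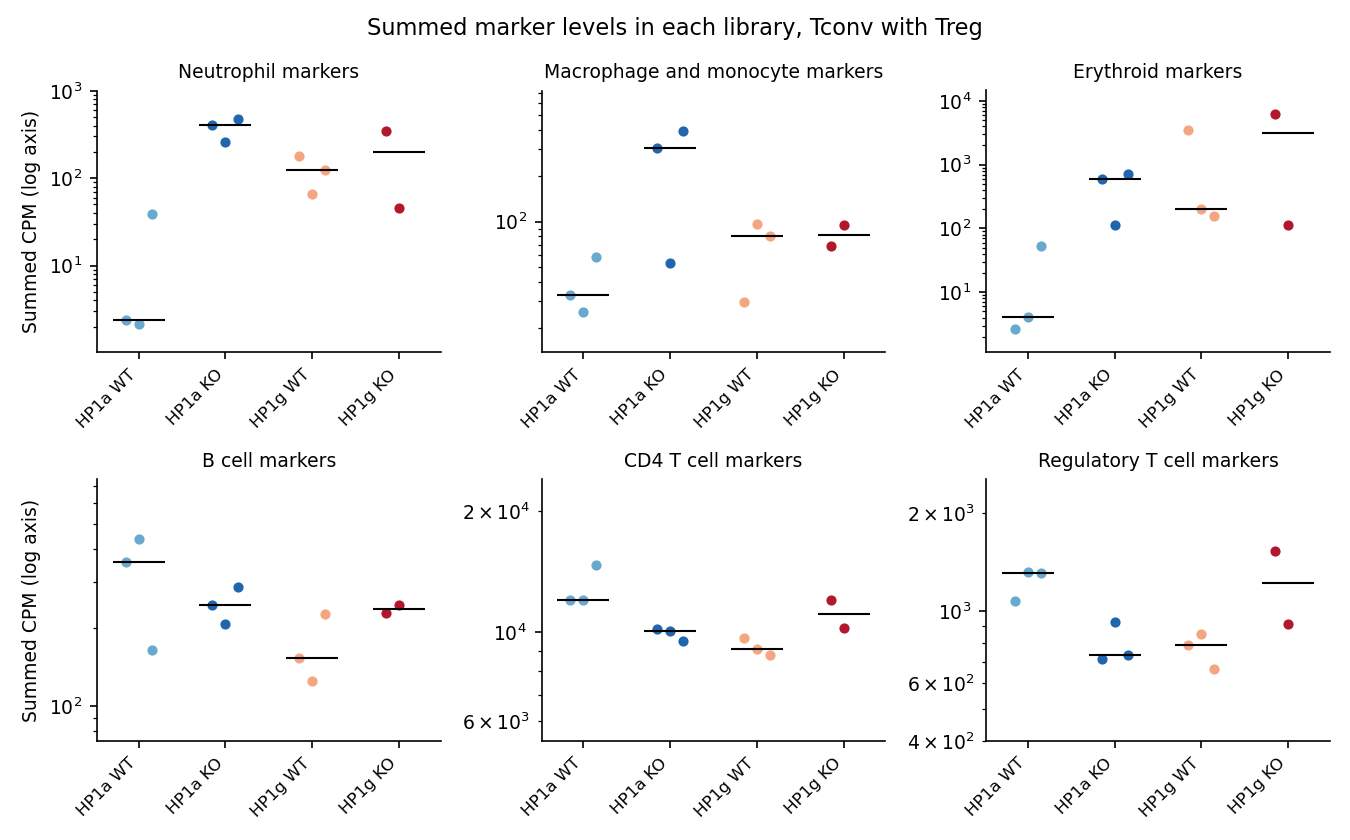
Summed CPM, on a log axis, of 6 marker lists in each of the 11 libraries, with a horizontal line at the group's median. The medians of neutrophil, macrophage and erythroid sums are lowest in HP1a WT, and erythroid sums differ many-fold between replicates in each group, whereas CD4 T cell marker sums stay between 8807 and 14670 CPM.

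Of 10 Treg markers 3 were called below 0 (30%, against 2.72% of all genes, median -1.17), Ikzf2, Gpr83 (-3.66), a neuropeptide receptor, and Ctla4, while Foxp3, the factor that defines Treg, had a difference of -2.01 (adjusted p 0.274). Summed levels were 715, 924 and 736 CPM in HP1a KO, 1078, 1316 and 1307 CPM in HP1a WT, 1529 and 911 CPM in HP1g KO and 786, 854 and 666 CPM in HP1g WT. The sums did not overlap between KO and WT in either line, and the lower HP1g KO library was level with the highest HP1a KO library. Activated Tconv also express several of these genes, and whether the sorted cells held converted or injected Treg was not tested. Among CD4 T cell markers none was called (median -0.74). Trac, the constant chain of the T cell receptor α, had an adjusted p of 0.0442 with a difference of -0.97 ± 0.222, which does not pass the threshold on size.

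The same difference of KO effects was taken in Tconv transferred without Treg, in 12 libraries that share none with the comparison above. Of 16979 genes tested, 2 were called (0.0118%), Rps7-ps3, a pseudogene, and Trav6d-7, a variable segment of the T cell receptor α chain whose reads can be shared with its copies, while 1383 had an unadjusted p under 0.05 and DESeq2 called 142. Genes called with Treg had the same sign without Treg in 254 of 288 tested below 0 (88.2%) and 157 of 174 above 0 (90.2%), against 64.4% of all genes tested in both. Their values were smaller without Treg, with medians of -0.70 and 0.45, against -3.18 and 2.03 for the same genes with Treg. The genes were selected for large values with Treg, so smaller values in other libraries follow in part from the selection and test nothing. Of the named genes, Spp1 was at -6.64 without Treg, Il10 at -3.72, Lag3 at -2.92, Pdcd1 at -2.15 and Tox at -1.21, while Havcr2 (-0.63), Il7r (0.52), Anxa1 (-0.10) and Slc2a3 (0.13) were close to 0. Chil3 and Ltf, at 12.78 and 12.50, had larger values without Treg than with it. Neither they nor the genes listed from Spp1 to Slc2a3 were among the 2 called there.

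**Figure D5:**
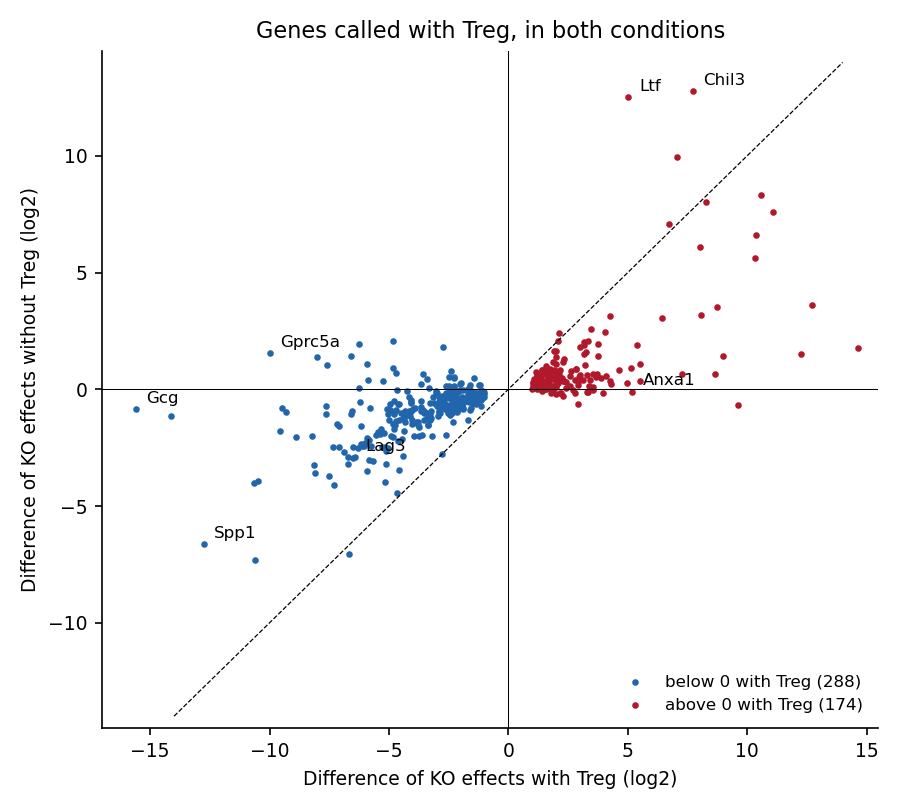
For 462 genes called with Treg and tested in both conditions, the difference of KO effects with Treg (x axis, log2) is plotted against the difference without Treg (y axis, log2), where equal values would lie on the dashed line. 404 of the points have the same sign in both and a smaller size without Treg, which selection by the values with Treg favours. Chil3 and Ltf lie above the line.

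The levels of the same genes were also taken without Treg. The 330 genes had medians of 3.46 CPM in HP1a KO and 3.04 in HP1a WT without Treg, 6.96 in HP1g KO and 3.29 in HP1g WT, and the 176 genes had medians of 50.5, 49.6, 48.1 and 68.4 CPM. The difference between the 2 conditions was tested in 1 fit of 23 libraries as the difference with Treg minus that without. Of 19141 genes 14 were called (0.0731%), 7 above 0 and 7 below (0.0366% each), 2010 had an unadjusted p under 0.05, and all 14 were among the 506. Medians of this further difference were -2.50 for the 330 and 1.51 for the 176 genes, which were selected for their values with Treg.

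Of the 14 genes, Hdac7, a class IIa histone deacetylase with a role in T cell development, and Epsti1, an interferon-induced gene, were the most abundant. Hdac7 had means of 94.6 CPM in HP1a KO, 158 in HP1a WT, 137 in HP1g KO and 72.7 in HP1g WT with Treg, and of 70.2, 65, 86 and 79.3 CPM without (-1.65 ± 0.244, adjusted p 0.0284). It lies within 20 Mb of Cbx5. Epsti1 had means of 206, 103, 132 and 305 CPM with Treg and of 290, 346, 301 and 317 CPM without (2.40 ± 0.436, adjusted p 0.0382). The WT libraries of the HP1a line were the high group of Hdac7 and the low group of Epsti1 with Treg, and the 4 groups were close together without. The others below 0 were Gprc5a, Gm15408, Tiam2, Slc9b2, Pex11a and Gnaq (-3.17), the α subunit of a G protein, and those above 0 included Anxa1 (5.31), Slc2a3 (2.48), Edaradd (4.27), Lratd2 (1.74) and Ly6a2. Ly6a2 had no counts in HP1a WT with Treg, so that its fitted value is no measure of size. This count rests on single libraries too, at 0 without replicate 1 of HP1g KO and 456 without replicate 2.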

How the data were processed

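RNA was amplified with SMART-Seq v4 PLUS and sequenced as paired-end reads. The authors aligned the reads with STAR to GRCm39 and quantified them with Salmon, and the deposited values are estimated counts per gene, neither scaled nor filtered. Salmon divides reads between near-identical genes, so counts of paralogs and pseudogenes are less certain, and 82.9% of the values were whole numbers. The table held 56748 genes.

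Columns were matched to samples by name and samples to groups by title. Counts were rounded, filtered with filterByExpr and scaled by TMM, and the 11 libraries were fitted in edgeR 4.0.16 (R 4.3.3) for its quasi-likelihood test, with robust estimation in glmQLFit. Both KO effects and their difference are contrasts of this fit. The comparison without Treg used 12 libraries and the test between conditions 23. Genes were called as in the study, at a Benjamini-Hochberg adjusted p under 0.05 with a log2 fold change beyond 1 in either direction, and the DESeq2 test that the authors used was an alternative (here DESeq2 1.42.0). CPM are scaled by TMM, and median levels of the called genes in all 8 groups by TMM over all libraries of the series. The tests were tried on simulated counts. SE were derived from the test statistic and so include the spread between libraries, whereas the floor of 3 counts covers counting error only. None of 10 replicate pairs held identical values.

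Cbx5 and Cbx3 were named, then the 12 highest and 12 lowest differences among called genes averaging 5 CPM or more (198 below and 133 above 0 were eligible, not counting pseudogenes, RIKEN clones, predicted genes or segments of immunoglobulins and T cell receptors), and each called member of a gene list or, where none was called, up to 3 with the lowest p. The genes called between conditions, without Treg and near the targets were named beside this rule, as were C5ar1, Clec4e, Fpr1 and Cd177. A few genes that the rule would name are not reported here. The comparison and the lists were chosen with earlier results of these data known. Of 75 Th1 and 104 exhaustion genes of the study, 75 and 102 were matched, 1 and 12 of them through a synonym. Gene positions are those of the GENCODE annotation of GRCm39, in which 133 of the tested genes were not found. Pairing by replicate number was checked by the correlation of deviations from group means. It was -0.016, 0.0545 and -0.00443 in the HP1a line and 0.335 and 0.175 in the HP1g line. Libraries of unequal number in the HP1g line gave -0.335 to 0.218. The deviations of its 2 KO libraries mirror each other, so the check cannot settle pairing in that line. The numbers were not taken to pair the libraries, and a fit that pairs them was an alternative.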

Additional observations from a re-analysis of the deposited data

Results flagged for a closer look

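The KO effects of the 2 lines with Treg differed by the test of the difference itself for 506 genes (edgeR's quasi-likelihood test, Benjamini-Hochberg adjusted p under 0.05, log2 difference beyond 1). This difference of KO effects itself differed between hosts with and without Treg for 14 genes, by the test of that further difference over 23 libraries.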

How the results depend on the processing

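With RLE size factors or without the threshold on the fold change the difference of KO effects with Treg was called for 515 and 527 genes, close to the 506 reported. DESeq2 called 1447 genes for it, 775 for the HP1a KO effect, 397 for the HP1g KO effect, 142 for the difference without Treg and 339 for that between conditions. With all 35 libraries in 1 fit these counts were 1650, 811, 337, 0 and 168. Without a filter on low counts they were 738, 193, 102, 6 and 32. With replicate 3 of HP1g KO put back they were 12 for the difference, 0 for both KO effects and 0 between conditions, and S1pr1 had a difference of -0.12. The replicate numbers were not taken to pair the libraries. With the replicate block, which treats libraries of equal number within a line as pairs, the counts were 274 (220 of them among the 506), 63, 0, 14 and 37. Leaving out 1 library at a time gave 51 to 903 genes for the difference, 0 to 133 for the HP1a and 0 to 172 for the HP1g KO effect, 2 to 5 without Treg and 0 to 456 between conditions. Libraries without Treg were not left out of the last.

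Of 83 called genes named, 8 stayed called whichever of the 11 libraries was left out, namely Spp1, Ascl2, Map2, Lag3, Tox, Tnfrsf9, Sostdc1 and Penk, and the median gene lost its call in 6. Spp1, Ascl2 and Penk also stayed called with the left-out library put back, where 79 lost it. The replicate block lost 23, and DESeq2 and RLE size factors lost none. Another scaling moved the median of all genes by at most 0.01 on the log2 scale. Genes with a group at 0 counts, 15 of the 330 and 14 of the 176, did not move the medians of -3.66 and 2.05 when set at their bound. With 2 libraries of HP1g KO, the spread within that group rests on 1 pair. The causes of these changes were not tested.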

Other observations

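Long noncoding RNA genes made up 33 of the 330 genes called below 0 (10%) and 5 of the 176 called above 0 (2.84%), against 13.6% of all genes tested. Pseudogenes made up 0.606% and 2.84% of the called genes, against 6.55%.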
